A study of Mus musculus with 7 samples.

Results

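The genes described here are 10 hypothalamic hormone and feeding peptide genes, Avp, Oxt, Gnrh1, Kiss1, Trh, Crh, Pomc, Agrp, Cartpt and Npy. They were taken by gene symbol from a list drawn up with earlier results of these data known, and are 10 of the 24062 gene symbols in the deposited count tables. Reads were counted in 7 samples, each holding the aspirated contents of 2 neurons from slices of the medial preoptic area (MPA). Temperature-responsive (TR, n = 4) and non-responsive (NR, n = 3) neurons were compared, to ask whether estrogen receptor alpha (ERα) neurons that fire faster with warmth differ in gene expression from those that do not. Both groups came from the Esr1-ZsGreen strain, in which a reporter transgene makes ERα cells fluoresce, and both held ZsGreen positive neurons from mice that the methods describe as female and 10 to 14 weeks old. In both groups the bath was warmed by 5 °C before the neurons were collected, so no sample stands for unwarmed neurons. The study names more than 1 cutoff for the rise in firing rate that divides the groups, and which of them was applied to these samples is not given in the sources used here. How many mice gave each sample is not given in the sources used here, and p-values therefore measure only the spread between these samples. In a pool of 2 neurons, fewer cells that use a gene, less of its RNA per cell and less RNA taken up from other cells cannot be told apart.

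Hypothalamic peptides are made as precursors, cut by convertases in dense-core granules and released either into the blood or onto other neurons. Vasopressin and oxytocin leave the brain through the posterior pituitary, whereas GnRH, TRH and CRH reach the anterior pituitary through the portal vessels. In the arcuate nucleus, POMC and CART neurons restrain feeding and AgRP and NPY neurons promote it. The MPA itself is known for GnRH and kisspeptin cells of the reproductive axis, for vasopressin and oxytocin cells near its borders, and for control of body temperature.

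Total counts ranged from 1914497 to 2814360 in TR samples and from 3309361 to 5125280 in NR samples, without overlap, and between 19852 and 21177 genes were detected in TR samples against 17818 to 19820 in NR samples. Levels are CPM, counts scaled to a common total, with each total corrected by TMM factors, and a floor of 3 counts lay between 0.566 and 1.61 CPM. Floors cover counting error only. Esr1, the gene for ERα, had 10 to 27 counts per sample. The Y-linked gene Ddx3y had 876, 684, 871 and 902 counts in TR samples and 813, 1150 and 1050 in NR samples. Xist had 2 to 14 counts per sample. These counts do not match samples described as female, and which sex gave them is not settled here. Markers of other cells were found in every sample. Summed over 8 cortical and hippocampal excitatory genes, levels were 395 to 585 CPM in TR and 555.5 to 585 CPM in NR samples. Summed over 5 oligodendrocyte genes, they were 2746 to 3760 against 2294 to 2930 CPM. Both lists overlapped between groups, as did those of cortical interneurons, microglia, and choroid plexus and ependyma. The cell lists that follow separated the groups. The summed level of 5 endothelial genes was 79.5 to 229 CPM in TR samples and 15.1 to 58.5 CPM in NR samples, that of 5 astrocyte genes was 1078 to 1253 against 880 to 1071 CPM, and that of 4 striatal genes was 50.7 to 73.5 against 79.8 to 100.1 CPM. Of these, 3 of 5 endothelial genes were called higher, 2 of 5 astrocyte genes were called higher and 1 lower, and both striatal genes that could be tested were called lower. The part of depth and of these cells in the results below was not tested.

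All 10 peptide genes had reads in all 7 samples. In 9 of them every sample had more than 3 counts, and the exception was Kiss1, with 3 counts in TR sample 1. Set per kilobase of transcript, so that levels can be compared between genes, Npy was the most abundant at 164 ± 28.2 CPM per kilobase (mean ± SD, n = 7), followed by Cartpt at 114 ± 13.5. Npy was above Cartpt in 7 of 7 samples, although their ranges overlapped. Oxt (38.7 ± 13.8 CPM per kilobase) and Pomc (38.2 ± 16.5) came next and did not differ beyond their spread, with Oxt the higher in 4 of 7 samples. Neither reached the range of Cartpt. Avp followed at 13.1 ± 5.26 CPM per kilobase and was below Pomc in 7 of 7 samples. Trh, Agrp, Kiss1, Gnrh1 and Crh, in that order, lay between 10.3 and 4.83 CPM per kilobase, and each overlapped its neighbours. Olfactory receptor genes, which brain neurons are not known for, gave 0.0332 to 0.598 CPM per kilobase over 1108 genes. They gave 0.252 to 0.598 in TR samples and 0.0332 to 0.184 in NR samples, without overlap. The part of this background in the peptide levels was not tested. Even the lowest ratio of a peptide gene to the olfactory receptor level of its sample, that of Gnrh1 in TR sample 2, was 7.81. Because markers of other brain cells were also present in every sample, this ratio does not show that the peptide RNA came from the collected neurons.

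**Figure D1:**
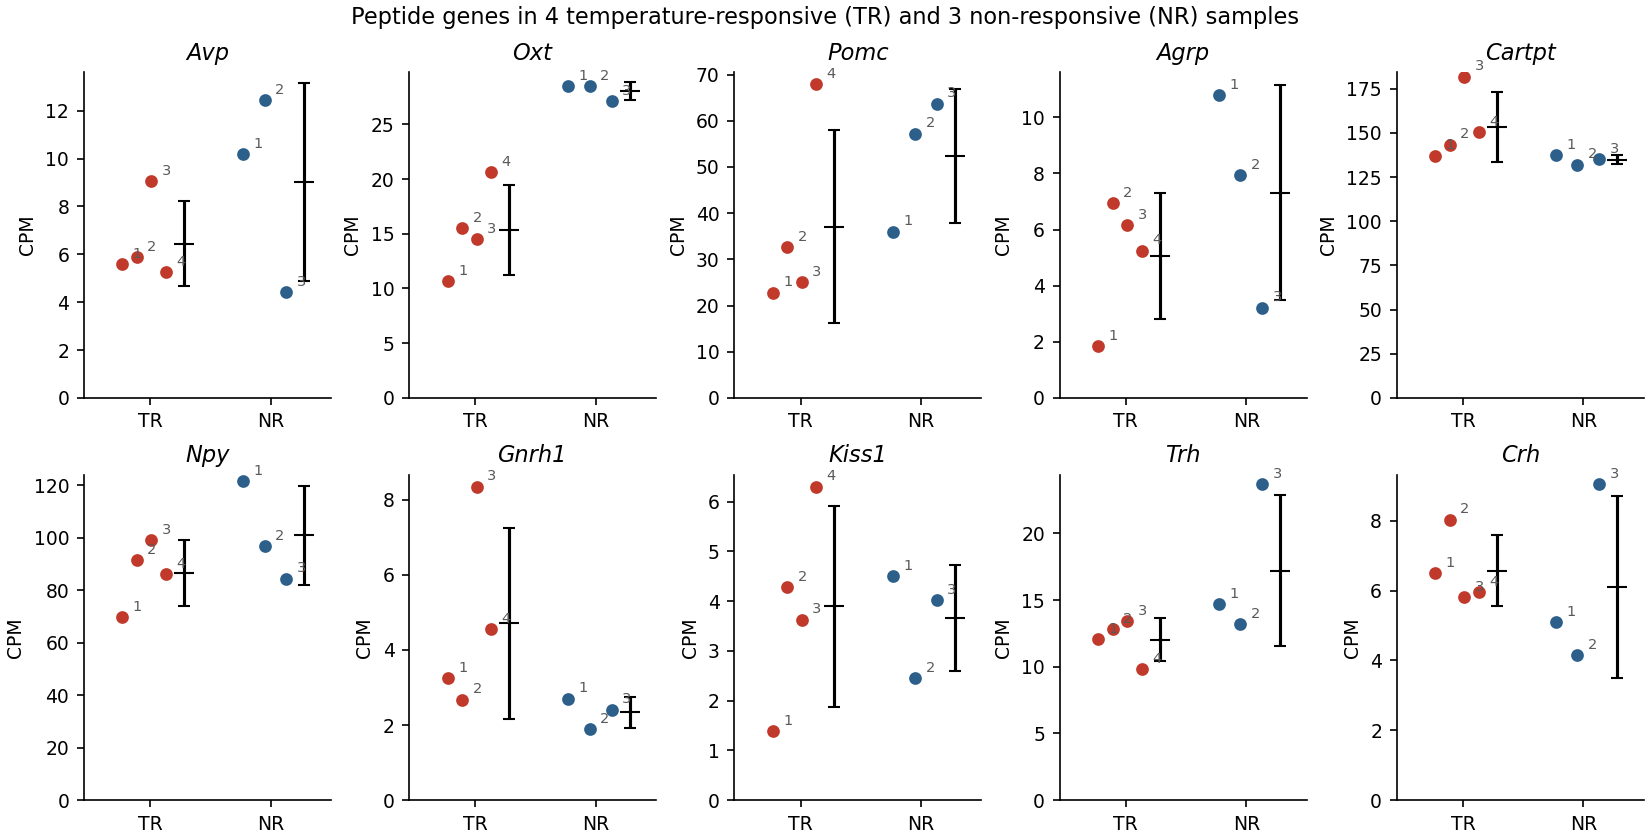
CPM of the 10 peptide genes on linear axes from 0, with a numbered point for each TR (red) and NR (blue) sample and black marks for the group mean ± SD (n = 4 and 3). Oxt is the gene whose TR samples (10.7 to 20.65 CPM) all sit below its NR samples (27.1 to 28.5 CPM), and the other 9 genes overlap between groups.

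Between the groups, Oxt was lower in TR samples and no other peptide gene passed the test. With edgeR's quasi-likelihood test and Benjamini-Hochberg adjustment over 14407 genes, 1 of 10 peptide genes was called at an adjusted p of 0.05, whereas 30.0% of all genes tested were called. The call was in the lower direction, which held 14.9% of all genes. Without adjustment, 3 of 10 had p under 0.05 (Oxt, Gnrh1 and Trh), compared with 41.3% of all genes. Groups did not overlap for 1 of 10 peptide genes and for 35.4% of all genes. The median log2 fold change (TR over NR) was -0.33 over the 10 genes and 0.0071 over all genes tested, with 6 fitted lower and 4 fitted higher. By exact permutation over the 35 splits of 7 samples into 4 and 3 (two-sided), 0 of 10 peptide genes had p under 0.05. The smallest p that this design can give is 0.0286.

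**Figure D2:**
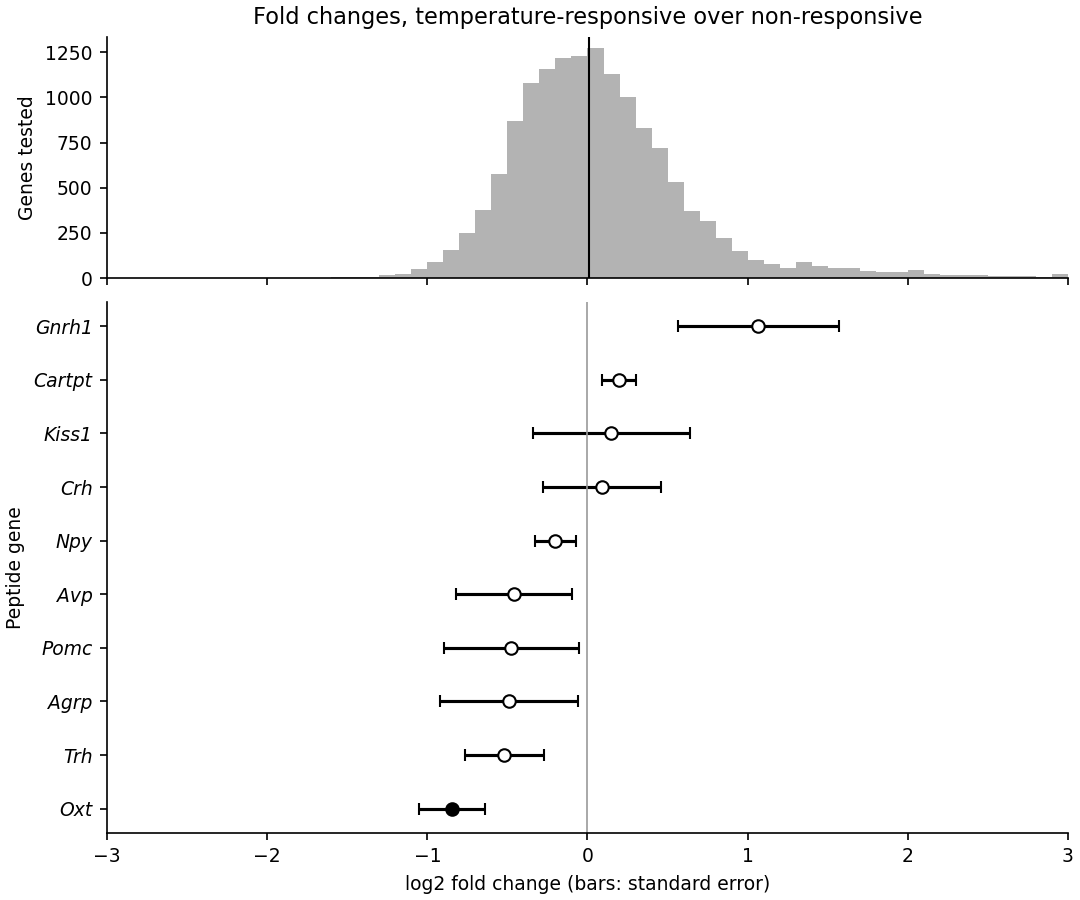
Log2 fold change, TR over NR, with a histogram of all genes tested and their median as a line (top, values beyond the axis placed in the end bins) and each peptide gene ± SE (bottom, filled where called by edgeR). Oxt, at -0.84, is the gene called, and Gnrh1 has the largest positive value, 1.07, with a standard error of 0.503.

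Oxytocin and vasopressin, the hormones of the posterior pituitary, are encoded by neighbouring genes transcribed towards each other. On mm10, Oxt lies at chr2:130576173-130577054 on the + strand and Avp at chr2:130580620-130582554 on the - strand, with 3565 bases between them. Their promoters are shown because the pair shares a locus and Oxt, but not Avp, was called. Each window is RefSeq sequence of build GRCm38.p6, from 250 bases before to 50 bases after the RefSeq start of the gene. That start differs from the GENCODE coordinates given above. The windows lie at chr2:130575919-130576218 (+) for Oxt and chr2:130582539-130582838 (-) for Avp, 5′ to 3′ on the gene's strand. Capitals mark GGTCA or its reverse complement TGACC, the core to which estrogen and other nuclear receptors are known to bind.
Oxt promoter: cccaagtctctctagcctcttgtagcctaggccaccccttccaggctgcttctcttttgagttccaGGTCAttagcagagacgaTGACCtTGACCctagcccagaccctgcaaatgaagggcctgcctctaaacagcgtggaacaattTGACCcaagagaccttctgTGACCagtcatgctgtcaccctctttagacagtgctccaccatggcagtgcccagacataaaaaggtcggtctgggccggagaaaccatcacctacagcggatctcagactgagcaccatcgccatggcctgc
Avp promoter: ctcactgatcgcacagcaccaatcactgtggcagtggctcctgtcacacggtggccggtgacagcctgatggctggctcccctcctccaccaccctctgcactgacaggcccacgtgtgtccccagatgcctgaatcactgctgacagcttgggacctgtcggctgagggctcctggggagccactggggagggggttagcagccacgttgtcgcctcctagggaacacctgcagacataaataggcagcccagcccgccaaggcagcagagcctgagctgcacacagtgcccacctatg
The Oxt window held 5 such matches, between 83 and 184 bases before the start, and the Avp window held 0. Among 32851 RefSeq windows of the same 300 bases, 40.5% held at least 1 match and 0.0944% held at least 5. Windows were found for 7 of the 10 genes. Npy held 0 matches, Pomc, Cartpt and Trh 1 each, and Kiss1 2. The spaced palindrome GGTCANNNTGACC was in none of the 7 and in 0.07% of all windows. The motif was chosen after the sequences were seen, and a match describes letters only.

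Oxt counts were 23, 29, 40 and 59 in TR samples 1 to 4 and 95, 151 and 135 in NR samples 1 to 3. These correspond to 10.7, 15.5, 14.5 and 20.65 CPM in TR samples and to 28.5, 28.5 and 27.1 CPM in NR samples. Every TR sample was below every NR sample, a separation in this direction that 18.6% of all genes had, and the lowest NR sample was 1.31 times the highest TR sample. Means were 15.3 ± 4.11 CPM (SD, n = 4) and 28.1 ± 0.794 CPM (n = 3), a ratio of 1.83 NR over TR. The fitted log2 fold change was -0.84 (SE 0.206, adjusted p = 0.00375 by edgeR's quasi-likelihood test), and the exact permutation test gave p = 0.0571. In a fit with each sample's count of detected genes as covariate, the value was -1.17 and no longer passed (adjusted p = 0.145 by edgeR's quasi-likelihood test).

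Avp counts were 12, 11, 25 and 15 in TR samples and 34, 66 and 22 in NR samples. On the CPM scale these were 5.58, 5.89, 9.07 and 5.25 against 10.2, 12.5 and 4.42. The lowest of all 7 levels was NR sample 3, below every TR sample, so the groups overlapped. It was fitted at a log2 fold change of -0.46 (SE 0.361, adjusted p = 0.353 by edgeR's quasi-likelihood test, exact permutation p = 0.371), which was -0.12 without NR sample 2 and -0.80 without NR sample 3. Oxt counts exceeded Avp counts in each sample, by 1.92, 2.64, 1.6 and 3.93 times in TR samples and by 2.79, 2.29 and 6.14 times in NR samples. The log2 ratio of Oxt to Avp averaged 1.25 ± 0.57 (SD, n = 4) in TR and 1.76 ± 0.75 (n = 3) in NR samples, a difference of -0.52 (exact permutation test, two-sided, p = 0.314, a comparison chosen after the values were seen). The called difference in Oxt was thus not shown to differ from that in Avp.

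Gnrh1 and Kiss1 belong to the reproductive axis, in which kisspeptin drives the GnRH neurons that control the gonadotropins. Gnrh1 (chr14:67745181-67749439) had 7, 5, 23 and 13 counts in TR samples and 9, 10 and 12 in NR samples, or 3.25, 2.68, 8.35 and 4.55 against 2.70, 1.89 and 2.41 CPM. TR samples 1, 3 and 4 were above every NR sample and TR sample 2 lay within the NR range. The log2 fold change was 1.07 (SE 0.503), with unadjusted p = 0.0439 and adjusted p = 0.110 by edgeR's quasi-likelihood test, and the exact permutation p was 0.143. Without TR sample 3 the log2 fold change of Gnrh1 was 0.64. Gnrh1 rested on at most 23 counts in a sample. Kiss1 (chr1:133327212-133329722) had 3, 8, 10 and 18 counts in TR samples and 15, 13 and 20 in NR samples. Its levels of 1.39, 4.28, 3.63 and 6.30 CPM enclosed the 4.50, 2.45 and 4.02 CPM of the NR samples. The log2 fold change was 0.15 (SE 0.491, adjusted p = 0.847 by edgeR's quasi-likelihood test), and it turned negative without TR sample 4 (-0.20) or without NR sample 2 (-0.08).

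Trh and Crh encode the releasing hormones of the thyroid and adrenal axes, and TRH neurons of the preoptic region are also known in control of body temperature. Trh (chr6:92242061-92244650) had 26, 24, 37 and 28 counts in TR samples and 49, 70 and 118 in NR samples, or 12.1, 12.8, 13.4 and 9.80 against 14.7, 13.2 and 23.7 CPM. The groups met at a single pair, with TR sample 3 just above NR sample 2, and NR sample 3 stood above the rest. The log2 fold change was -0.52 (SE 0.249), with unadjusted p = 0.0473 and adjusted p = 0.116 by edgeR's quasi-likelihood test, and the exact permutation p was 0.0571. Without NR sample 3 the log2 fold change of Trh was -0.21. When samples were scaled by library size only, or drawn down to the lowest total, the groups separated and the exact permutation p was 0.0286. Crh (chr3:19693401-19695396) had 14, 15, 16 and 17 counts in TR samples and 17, 22 and 45 in NR samples. Its levels were 6.51, 8.03, 5.81 and 5.95 CPM in TR samples and 5.10, 4.15 and 9.04 CPM in NR samples, which enclosed the TR range. Crh had a log2 fold change of 0.09 (SE 0.369, adjusted p = 0.875 by edgeR's quasi-likelihood test) and moved to 0.51 without NR sample 3 and to -0.14 without NR sample 2.

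Pomc and Cartpt are the feeding-restraining pair. Pomc (chr12:3954951-3960642), the precursor of melanocortins and beta-endorphin, had 49, 61, 69 and 194 counts in TR samples and 120, 303 and 317 in NR samples. The levels were 22.8, 32.6, 25.04 and 67.9 CPM in TR samples and 36.0, 57.2 and 63.7 CPM in NR samples. TR sample 4 was the highest of all 7 and had 2.53 times the mean of the other TR samples, whereas those 3 all lay below the NR samples. With all samples the groups overlapped, and the log2 fold change was -0.48 (SE 0.420, adjusted p = 0.448 by edgeR's quasi-likelihood test, exact permutation p = 0.257). Without TR sample 4 the TR mean was 26.8 ± 5.17 CPM (SD, n = 3), and the log2 fold change was -0.97 (adjusted p = 0.00136 by edgeR's quasi-likelihood test, exact permutation p = 0.1). Each sample was left out in turn, and TR sample 4 is singled out here because of its own Pomc level. Because number 4 occurs in 1 group only, the fit with replicate number as a block also takes nothing from TR sample 4, and it gave -0.96 (adjusted p = 3.08e-04 by edgeR's quasi-likelihood test). Summed over 8 markers of the pituitary, which also makes Pomc RNA, the level was 12.3 CPM in TR sample 4, 6.97 to 13.9 CPM over the TR samples and 4.72 to 7.2 CPM over the NR samples. Pitx1 had 13 counts and Tshb 11 in TR sample 4 and the other 6 markers had 1 to 3, and their part in the Pomc level was not tested.

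**Figure D3:**
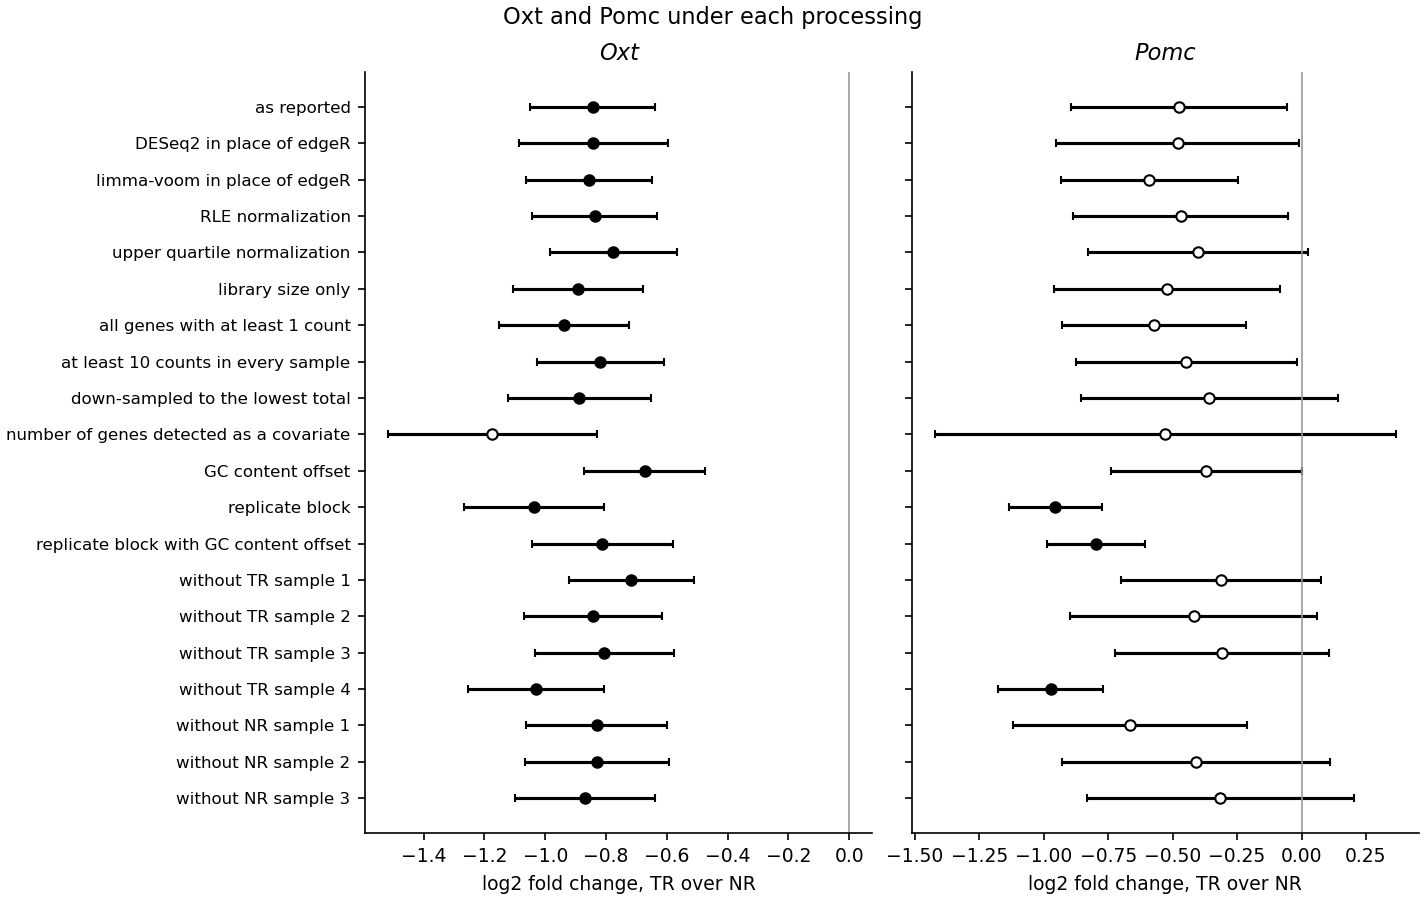
Log2 fold change, TR over NR, of Oxt and Pomc under each analysis setting, ± SE, filled where the adjusted p was under 0.05. Oxt stays between -1.17 and -0.67 and loses its call once detected genes per sample enter as covariate, whereas Pomc lies between -0.97 and -0.31 and is called only in settings that take nothing from TR sample 4.

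Cartpt (chr13:99898489-99901091), which encodes the CART peptides, had 295, 268, 501 and 429 counts in TR samples and 458, 699 and 672 in NR samples. Its levels were 137, 143, 182 and 150 CPM against 137, 132 and 135 CPM. Apart from TR sample 3, the samples lay close together. Its fitted log2 fold change was 0.20 (SE 0.104, adjusted p = 0.153 by edgeR's quasi-likelihood test, exact permutation p = 0.143), and 0.11 without TR sample 3.

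Agrp and Npy are the feeding-promoting pair, co-expressed by arcuate neurons, although many other neurons also make NPY. Agrp (chr8:105566698-105568298), an antagonist of melanocortin receptors, had 4, 13, 17 and 15 counts in TR samples and 36, 42 and 16 in NR samples. Its levels were 1.86, 6.96, 6.17 and 5.25 CPM against 10.8, 7.93 and 3.22 CPM, with NR sample 3 below 3 of the 4 TR samples. This gave a log2 fold change of -0.49 (SE 0.433, adjusted p = 0.414 by edgeR's quasi-likelihood test, exact permutation p = 0.486), which was -0.13 without NR sample 1, -0.23 without TR sample 1 and -0.86 without NR sample 3. Npy (chr6:49822710-49829507) had 150, 171, 273 and 246 counts in TR samples and 405, 512 and 420 in NR samples. The levels of 69.7, 91.5, 99.1 and 86.1 CPM overlapped the 121.5, 96.7 and 84.4 CPM of the NR samples, of which only NR sample 1 stood above all TR samples. Npy had a log2 fold change of -0.20 (SE 0.130, adjusted p = 0.254 by edgeR's quasi-likelihood test, exact permutation p = 0.371), and one of -0.05 without NR sample 1. Npy counts exceeded Agrp counts by 11.25 to 37.5 times per sample.

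The spread between pools of the same group is given as a description, with no test. The coefficient of variation (CV) of CPM within groups was lowest for Cartpt, at 10.1%, followed by Npy at 16.3%, Oxt at 20.8%, Trh at 23.2% and Crh at 29.4%. It was 36.0% for Avp, 43.4% for Gnrh1, 44.2% for Kiss1, 47.2% for Pomc and 47.7% for Agrp. The median CV was 32.7% over the 10 genes and 15.2% over all genes tested, but the peptide genes were also lower in level, with a median of 10.9 CPM against 35.6 CPM. Set against the variance that counting gives, the median ratio was 2.38 for the peptide genes and 2.31 for all genes. The ratio was above 2 for 9 of 10 peptide genes and for 57.3% of all genes. That count depends on the line chosen, because Gnrh1 (2.01), Trh (2.03), Kiss1 (2.15) and Oxt (2.16) lay just above it.

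Pomc stood out in this ratio. For Pomc, the variance within groups was 25.6 times that of counting, and 0.784% of all genes had a larger ratio. Without TR sample 4 its CV was 23.9%. Npy (6.82), Cartpt (4.34) and Agrp (3.59) came next. Without TR sample 3 the CV of Cartpt was 3.52%, below the 4.86% that counting gives with all samples. The hormone genes had ratios from 1.6 (Crh) to 2.59 (Avp). The CV of Oxt was 2.83% across the NR samples, for 95 to 151 counts, and 26.8% across the TR samples, for 23 to 59 counts. The NR value is below the 14.2% that counting gives for Oxt over both groups. That figure includes the lower counts of the TR samples, and none was made for the NR samples alone. Whether the groups differ in evenness was not tested.

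**Figure D4:**
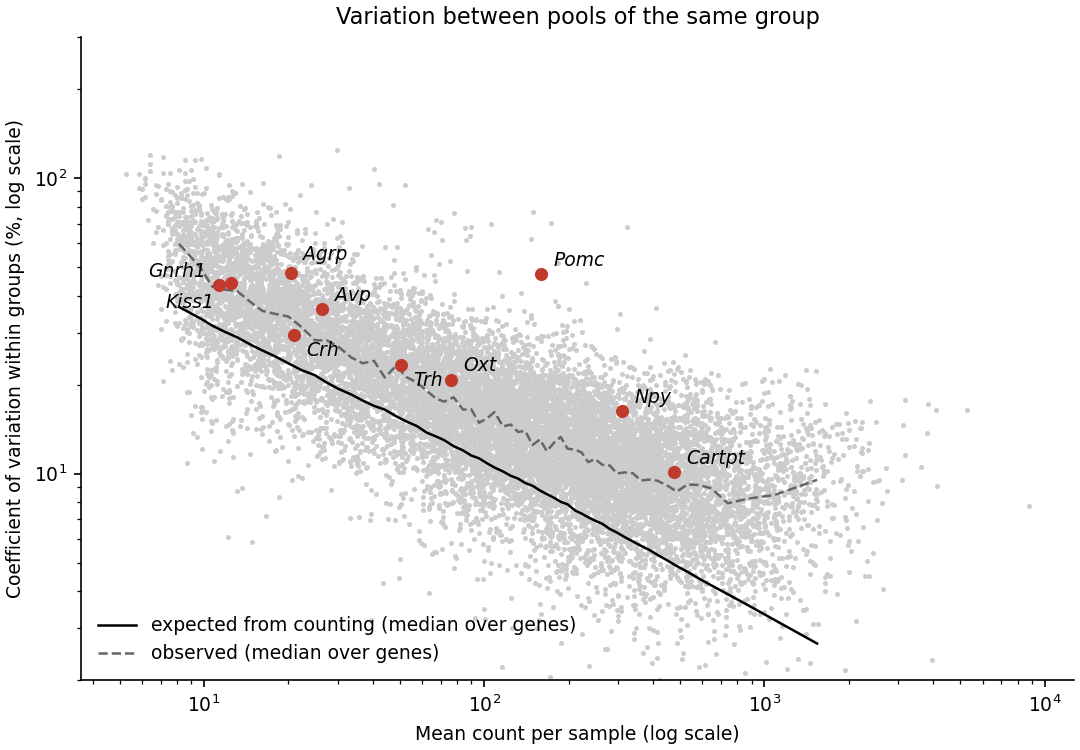
CV of CPM within groups (percent) against mean count per sample, both on log axes, for all genes tested (grey) and the peptide genes (red), with lines for the median observed CV and the median CV that counting gives. Pomc has the widest gap, 47.2% against 9.32%, and Crh the narrowest in proportion, 29.4% against 23.3%.

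Lists of related genes were described by their counts in the same test, over the genes that had enough counts to be tested. Among 18 other neuropeptide genes tested, 3 were called higher (15.1% of all genes tested were) and 5 lower (14.9% of all genes), with a median log2 fold change of -0.30. The lower calls were Hcrt, Pnoc, Pdyn, Penk and Gal, and the higher calls Pmch, Vip and Cck. Hcrt, the orexin precursor of the lateral hypothalamus, had 5.58, 16.6, 11.97 and 16.8 CPM in TR samples and 24.3, 34.2 and 27.5 CPM in NR samples, without overlap. Its log2 fold change was -1.16 (SE 0.248, adjusted p = 0.00152 by edgeR's quasi-likelihood test). Pmch, the precursor of melanin-concentrating hormone and also a lateral hypothalamic peptide, went the other way, with 154, 136, 94.3 and 118 CPM in TR samples and 93.9, 71.2 and 67.9 CPM in NR samples. Its log2 fold change was 0.70 (adjusted p = 0.00141 by edgeR's quasi-likelihood test), and TR sample 3 and NR sample 1 nearly met. Of the opioid-family precursors, Pnoc (nociceptin) was lower with a log2 fold change of -0.79 (adjusted p = 0.00672) and Pdyn (dynorphin) with -0.76 (adjusted p = 0.0159) by the same edgeR test. NR sample 3, at 96.3 CPM, was the highest for Pdyn, which had a log2 fold change of -0.34 and was not called without that sample (adjusted p = 0.151 by edgeR's quasi-likelihood test).

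Among the 16 genes of peptide processing and dense-core granules, 2 were called higher and 3 lower, a share near the 30.0% called among all genes, and the median log2 fold change was -0.01. The granule proteins Vgf (log2 fold change -0.63, adjusted p = 0.00106 by edgeR's quasi-likelihood test) and Chga (-0.48, adjusted p = 0.00123) were lower in TR samples, as was Ptprn. Cpe, the carboxypeptidase that trims cut precursors, was higher (0.50, adjusted p = 0.00339 by edgeR's quasi-likelihood test), and so was Cadps (0.37, adjusted p = 0.0132), which primes granules for release. The adjusted p of Cadps was between 0.0511 and 0.0551 when TR sample 1, NR sample 2 or NR sample 3 was left out.

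Of the 16 receptor and binding protein genes for these peptides, 12 could be tested and 1 was called, compared with 30.0% of all genes tested. It was Npy2r, a receptor for NPY, with 71.1 to 125 CPM in TR samples and 62.1 to 70.3 CPM in NR samples. Its log2 fold change was 0.49 (adjusted p = 0.0135 by edgeR's quasi-likelihood test), and it was not called without TR sample 2 (adjusted p = 0.0736) or without NR sample 2 (adjusted p = 0.0647). Of 12 transcription factors of neuroendocrine neurons 7 could be tested, and 2 were called, both higher. Among all genes tested, 30.0% were called and 15.1% were called higher. The called factors were Tbx3 and Pou3f2, the latter needed for oxytocin, vasopressin and CRH neurons to form. Pou3f2 had 66.9 to 78.1 CPM in TR samples and 41.2 to 59.1 CPM in NR samples, with a log2 fold change of 0.50 (adjusted p = 0.00806), and it was not called without NR sample 3 (adjusted p = 0.0666 by edgeR's quasi-likelihood test).

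**Figure D5:**
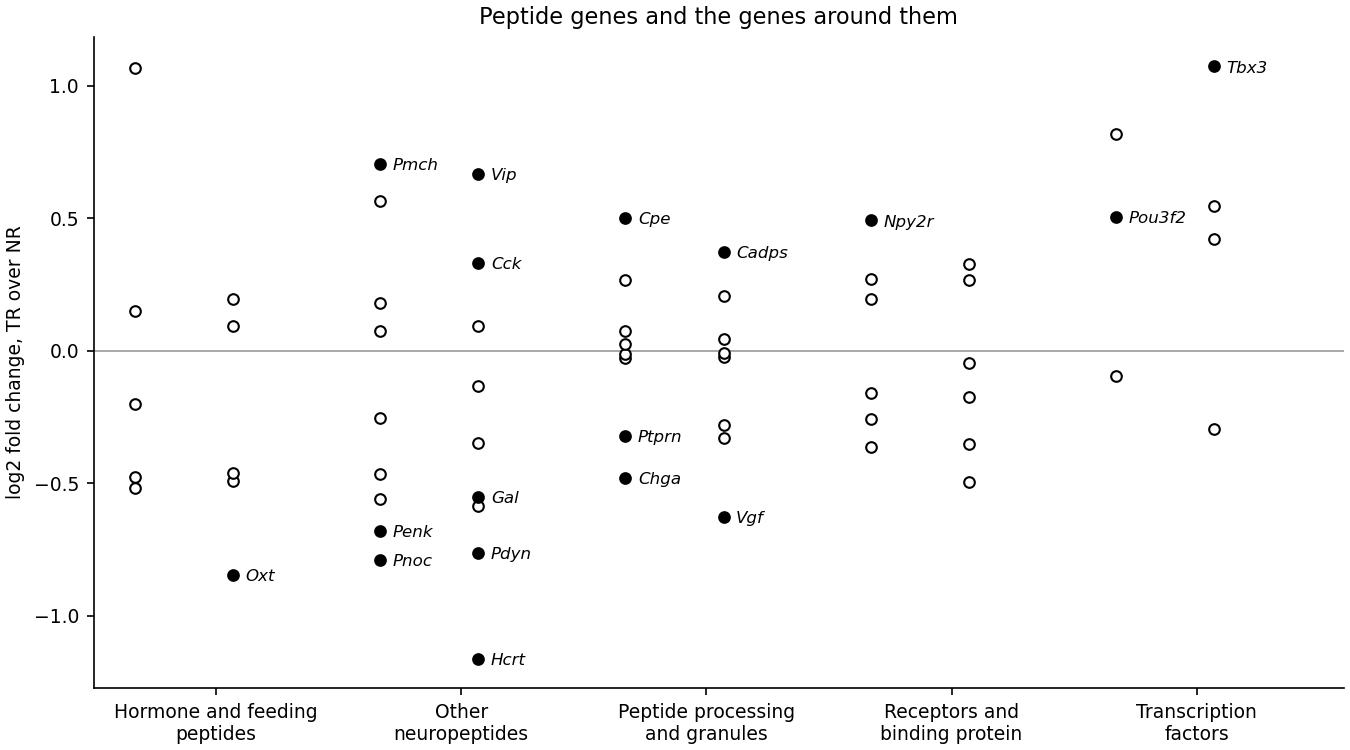
Log2 fold changes, TR over NR, of the genes tested in each list, with called genes filled and named, spread sideways for legibility only. The peptide genes and the other neuropeptides have medians of -0.33 and -0.30, the processing genes -0.01, the receptors -0.10 and the transcription factors 0.50.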

How the data were processed

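Full-length cDNA was made with the SMART-seq V4 kit, libraries were prepared with Nextera XT, and samples were sequenced in 1 lane. The authors aligned reads to mm10 with STAR 2.6.0 after FastQC 0.72, removed duplicates and deposited raw htseq-count (HTSeq 0.9.1) read counts per gene symbol. Duplicate removal without molecular identifiers can remove distinct molecules and so compress abundant genes such as Cartpt and Npy. The annotation and strand setting are not given in the sources used here, but no exon of the 10 genes overlapped another gene in the tables.

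From the deposited counts, 14407 genes that reached 10 counts in 3 or more samples entered edgeR 4.0.16 (TMM, robust quasi-likelihood test, two-sided, R 4.3.3), with adjustment over all of them. Log2 CPM with a prior count of 2 was used for exact permutation tests. Alternatives used DESeq2 1.42.0, limma 3.58.1 and a GC offset made with mgcv 1.9.3. Simulated counts, in which 200 genes were given a log2 fold change of 1, served as a check of the method. Of these genes 76.4% were recovered, with 3.18% false calls. Once a GC trend was simulated, false calls were 94.9% without a GC offset and 8.44% with it. The strength of that trend was fixed in advance and not fitted to these samples, so these shares do not carry over to the main fit. The main fit used no GC offset, and fold changes in these samples followed GC content (Spearman's rho -0.352). The share of false calls in the main fit was not tested.

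The 10 genes and all lists were chosen with earlier results of these data known. From each list, the text gives values for up to 4 called genes with the largest fold change whose groups did not overlap, and further called genes by name only. Coordinates and lengths came from GENCODE M21, where 94.5% of symbols were found, and promoters from RefSeq. Samples of the same group differed by more than sampling noise, with a chi-square of 1.94 to 5.36 per degree of freedom over 12220 genes. Same-numbered samples did not deviate together (correlations -0.13, -0.062 and 0.032), so the numbers were not taken as pairs.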

Additional observations from a re-analysis of the deposited data

Results flagged for a closer look

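Avp stood out among the TR samples because 1 of the 4 lay far from the others. TR sample 3 had 9.07 CPM (25 counts) whereas the other TR samples had 5.25 to 5.89 CPM, and the gap to the nearest sample was 0.834 of the whole range, above Dixon's 95% limit for 4 samples. Chance marks about 1 in 20 groups in this way, and this was 1 of 21 genes examined.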

How the results depend on the processing

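Oxt stayed lower in TR samples under every alternative run and kept its call in all but 1, the fit with each sample's count of detected genes as covariate, where its log2 fold change was -1.17 and 0 of the 10 peptide genes and 1 of all genes were called (2061 genes had unadjusted p under 0.05). That count and the group separate the same samples and cannot be told apart. Replicate number as a block, which takes nothing from TR sample 4, called 2 peptide genes (Oxt and Pomc), with and without a GC offset, and 4124 genes in all (2901 with the offset). Pomc was then at -0.96, and at -0.80 with the GC offset. Leaving out each sample called 1 to 2 peptide genes and 2620 to 4583 of all genes, and gave log2 fold changes of -1.03 to -0.72 for Oxt and -0.97 to -0.31 for Pomc. Among values not called, signs changed for Avp (0.12 with block and GC offset), Trh (0.053 with the covariate), Crh (-0.0008 with all genes of at least 1 count, -0.14 to 0.51 over left-out samples) and Kiss1 (-0.55 with the covariate, -0.23 with the block, -0.0093 with block and GC offset, -0.20 to 0.41 over left-out samples). The covariate also moved Agrp to -1.93, Avp to -1.02, Npy to -0.61 and Crh to 0.63, and the GC offset moved Avp to -0.15. On log2 CPM the Kiss1 difference was 0.069 when drawn down to the lowest total and -0.27 to 0.33 over left-out samples, and that of Crh -0.058 to 0.45. The share of calls that were higher was 50.3%, but 62.1% with upper quartile scaling and 37.8% with the GC offset, and fold changes followed GC content across genes (Spearman's rho -0.352 over 13745 genes, which are not independent replicates). With the GC offset Oxt was at -0.67 (adjusted p = 0.015 by edgeR), and Cadps, Npy2r and Pou3f2 were not called. Vgf, Npy2r and Pou3f2 were not called with block and GC offset, nor Pdyn with limma-voom or without TR sample 1. The covariate ended the calls of all 10 list genes given with values. Gnrh1 and Kiss1 could not be tested at the stricter filter or when drawn down, nor Agrp at the stricter filter. The cause of these changes was not tested. Avp, Gnrh1, Kiss1, Agrp and Crh rest on 3 to 25 counts in each TR sample.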
